A study of Mus musculus with 160 samples.

Results

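Chemokines and chemokine receptors were followed over 8 cell populations sorted from the aorta-gonads-mesonephros (AGM) region of mouse embryos. The members are the protein-coding genes of the count table whose GENCODE M21 symbol begins with Ccl, Cxcl, Cx3cl, Xcl, Ccr, Cxcr, Cx3cr, Xcr or Ackr and goes on with a number. They are 67 of 21596 protein-coding genes and of 46078 genes in all. The study examined how cells that transcribe *Gata3*, a transcription factor gene, differ from their neighbours in the AGM, where the first haematopoietic stem cells form in the wall of the dorsal aorta. Every embryo carried GFP knocked into the *Gata3* locus (genotype *Gata3*-GFP +/-), so that GFP+ and GFP- cells have this same altered allele, and GFP marks cells in which the locus is active. RNA of pools of 20 sorted cells was read with Smart-seq2, which makes full-length cDNA from few cells and carries no molecular identifiers. At E10.5, endothelial cells (ECs) were sorted as Cdh5+ and negative for CD41 and CD45, and haematopoietic cells (HCs) as CD41/45+, a gate that joins both antigens, so a cell with either could pass. At E11.5, mesenchymal cells (MCs) were sorted by Pdgfrb and cells of the sympathetic nervous system (SNS) by Ngfr. Each of these was divided into GFP+ and GFP- cells, which gives 8 populations of 20 pools. By the study's methods the E10.5 cells came from 3 to 5 biological replicates that each joined 2 to 6 embryos. The labels do not tie a pool to its replicate, so pools stand as replicates, and pools from the same embryos were treated as independent. Standard errors and p-values thus measure the spread between pools, not between embryos, and may be too small.

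Chemokines are small secreted or membrane-bound proteins that bind G protein-coupled receptors and direct the movement and positioning of cells. Atypical receptors bind chemokines without coupling to G proteins and take them up or carry them, which shapes the gradients that other cells read. In embryos, Cxcl12 and its receptor Cxcr4 act in vessel patterning and in the homing of haematopoietic stem and progenitor cells, and many chemokines of the CC class attract monocytes and macrophages, which are among the cells of the AGM.

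Of the members, 44 are ligand genes, 19 are receptor genes and 4 are atypical receptor genes, and together they have 62 distinct symbols. *Ccl19*, *Ccl21a*, *Ccl21b* and *Ccl27* each occur more than once, as near-identical copies among which reads cannot be placed with certainty. Another 3 genes with matching symbols (*Cxcl11*, *Ccl19-ps1* and *Ccl19-ps3*) are annotated as not protein-coding and were left out, and the platelet chemokines *Pf4* and *Ppbp* carry other symbols and are not members. A member was called detected in a population when 5 or more of its pools had 10 counts or more. By this measure 37 members were detected in a population or more, namely 22 ligands, 12 receptors and 3 atypical receptors. The 30 others were detected in none, and 6 of these had 0 counts in every pool. The undetected ligands include *Ccl19*, *Ccl20*, *Ccl21a*, *Ccl22*, *Ccl28*, *Cxcl9*, *Cxcl17* and *Xcl1*, and the undetected receptors are *Ccr4*, *Ccr6*, *Ccr8*, *Ccr10*, *Ccr1l1*, *Cxcr1* and *Cxcr6*, with *Ackr4* among the atypical receptors. *Cxcr6*, the receptor of *Cxcl16*, had its highest mean, 2.69 CPM, in GFP+ HCs. CPM here has the library sizes scaled by TMM over all passing pools.

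Many members lie in clusters on the GRCm38 assembly, taken here as members less than 500 kb apart. On chromosome 11, *Ccl2*, *Ccl7*, *Ccl11*, *Ccl12*, *Ccl8* and *Ccl1* lie between 82035571 and 82305690, and 4 of these 6 were detected. On the same chromosome, *Ccl5*, *Ccl9*, *Ccl6*, *Ccl3* and *Ccl4* lie between 83525778 and 83664683, and all 5 were detected. A receptor cluster on chromosome 9 has *Ccr9*, *Xcr1*, *Ccr1*, *Ccr3* and *Ccr2* among its detected genes and *Cxcr6* and *Ccr1l1* among those not detected. *Cxcl5*, *Cxcl3*, *Cxcl15*, *Cxcl1* and *Cxcl2* on chromosome 5 (90759360 to 90905938) gave 3 detected genes of 5, and *Ccl22*, *Cx3cl1* and *Ccl17* on chromosome 8 (94745590 to 94812036) gave 2 of 3. Exons of some members overlap other genes, and counts there are uncertain. *Cxcl16* shares 18.27% of its exon bases with *Zmynd15* on the opposite strand, *Ackr1* shares 25.69% with *Cadm3* on the same strand, and *Ccr9* shares 18.83% with *AC165425.1* on the opposite strand. For *Cxcl10* (*Art3*) the share is 5.91%, for *Cxcr5* (*Bcl9l*) 3.3%, for *Ccl25* (*Elavl1*) 2.74%, for *Cx3cr1* (*Gm33858*) 1.73% and for *Ccl27a* (*Il11ra1*) 0.34%.

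Of the 160 pools, 7 missed the study's limits on reads, mitochondrial share or spike-in share and were left out. This leaves 19 GFP+ and 20 GFP- pools of ECs, 20 and 20 of HCs, 20 and 17 of MCs, and 18 and 19 of SNS cells. Counts on genes per passing pool ran from 1400824 to 16004756 with a median of 3801233. The floor of a pool was set at 3 counts, which is a median of 0.818 CPM in GFP+ ECs and 0.636 CPM in GFP+ SNS pools. Floors and counting intervals given here cover counting error only, since amplified reads are not independent molecules. Tests of GFP+ against GFP- pools are those of edgeR's quasi-likelihood method, for genes that reached 10 counts in 5 or more of the pools in the comparison, and p-values were adjusted by Benjamini-Hochberg over all genes tested. A gene is called higher or lower when its adjusted p is under 0.01 and its log2 fold change is beyond 0.1. The threshold of 10 counts in 5 pools lets some genes pass through one population alone, so counts of called members are descriptions of the genes tested. E10.5 and E11.5 populations were not tested against each other, since stage and cell type cannot be told apart there. In pools of cells, fewer cells that carry an mRNA and less of that mRNA per cell cannot be told apart.

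The labels were checked against the mRNA of the genes used for sorting, a check chosen after the values were seen. A pool went against its label when the sorting gene of the other cell type at the same stage exceeded its own (*Cdh5* against the sum of *Ptprc* and *Itga2b*, and *Pdgfrb* against *Ngfr*). No EC or HC pool did so. *Cdh5* had a median of 1018 CPM in GFP+ ECs and 424.7 CPM in GFP- ECs, against 9.65 CPM in GFP+ HCs and 3.97 CPM in GFP- HCs. *Ptprc*, which encodes CD45, had medians of 202 and 421 CPM in GFP+ and GFP- HCs. A GFP+ HC pool had 1345 CPM of *Itga2b* (CD41) and 4.44 CPM of *Ptprc*, and a GFP- HC pool had 0.705 and 433 CPM. *Gata3* itself ran from 27.9 to 171 CPM in GFP+ ECs and from 4.37 to 29.3 CPM in GFP- ECs, and from 12.4 to 143.9 CPM in GFP+ HCs and from 1.83 to 12.5 CPM in GFP- HCs, so that the ranges touch within each cell type.

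At E11.5, 12 pools went against their labels, 3 in each of the 4 populations. They are the last 3 of the 20 columns of each population in the count table. In the 3 GFP+ MC pools *Pdgfrb* was 1.07, 8.31 and 12.5 CPM and *Ngfr* 293 to 332 CPM, while the other 17 pools had 172 to 296 CPM of *Pdgfrb* and 0.106 to 11.7 CPM of *Ngfr*. In the 3 GFP- MC pools *Pdgfrb* was 0.961, 1.62 and 1.91 CPM and *Ngfr* 29.1, 73.4 and 111.98 CPM, against 111.4 to 236 CPM and 0.247 to 17.4 CPM in the other 14. These 3 pools are labelled GFP- and also held up to 398 CPM of *Gata3*, with a median of 356 CPM, where the other 14 had 2.6 to 19.2 CPM. The 3 SNS pools of each sort showed the reverse. In GFP+ SNS they had 116.4 to 133.2 CPM of *Pdgfrb* and 0.92 to 7.36 CPM of *Ngfr*, where the other 15 had 0 to 3.54 CPM and 46.3 to 154.4 CPM. In GFP- SNS they had 139.5 to 256 CPM of *Pdgfrb* and 4.38 to 7.94 CPM of *Ngfr*, where the other 16 had 0.716 to 29.6 CPM and 191 to 339 CPM. *Gata3* also ran opposite to the GFP label there, since the 3 GFP+ SNS pools had 10.2 to 24.2 CPM (the other 15 had 111.6 to 309 CPM) and the 3 GFP- SNS pools 45.8 to 51.5 CPM (the other 16 had 11.2 to 94.99 CPM). In the 3 GFP+ MC pools it was 16.4 to 80.96 CPM, near the 20.4 to 72.5 CPM of the other 17. The plot of the sorting genes at E11.5 marks these pools. They were kept under their labels and moved to no other population, and E11.5 tests of members and partners, detection, pair counts and highest levels are given with all pools and without these 12. Other E11.5 values use all pools unless stated.

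**Figure D1:**
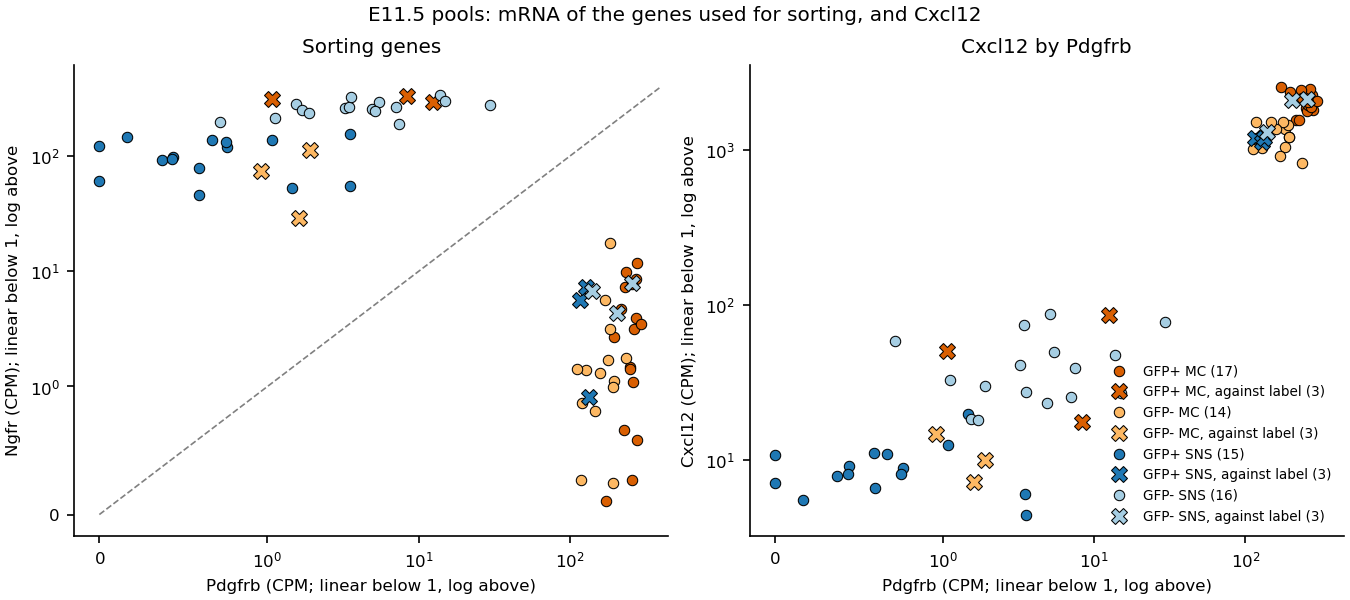
*Ngfr* mRNA (left) and *Cxcl12* mRNA (right) against *Pdgfrb* mRNA in the 74 passing E11.5 pools, all in CPM on axes that are linear below 1 and logarithmic above; circles are pools whose sorting genes fit the label, crosses the 12 pools that go against it, colours the 4 populations, and the dashed line marks equal values. The crosses of each cell type lie on the other cell type's side of the dashed line, and *Cxcl12* is above 800 CPM in every pool rich in *Pdgfrb* and below 90 CPM in every pool rich in *Ngfr*.

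Compared over the 8 populations per kilobase of exon (RPKM), the ligand with the highest mean level was *Cx3cl1* in GFP+ ECs (12.7 RPKM), *Ccl3* in GFP- ECs (6.24 RPKM), in GFP+ HCs (257 RPKM) and in GFP- HCs (733 RPKM), and *Cxcl12* in GFP+ MCs (214 RPKM), GFP- MCs (123.3 RPKM), GFP+ SNS (24.7 RPKM) and GFP- SNS (39.97 RPKM). Macrophage markers summed to medians of 77.3 CPM in GFP- ECs and 8226 CPM in GFP- HCs. Their part in the *Ccl3* and *Cx3cr1* levels of ECs was not tested. The *Cxcl12* means of SNS rest on the pools that go against the label. The highest ligand of GFP+ SNS without the 12 pools was *Ccl27a* (4.15 RPKM), with *Cxcl12* at 1.11 RPKM, while *Cxcl12* stayed highest in GFP- SNS (5.15 RPKM), GFP+ MCs (251 RPKM) and GFP- MCs (149.5 RPKM). Among signalling receptors the highest mean was that of *Cxcr4* in GFP+ ECs (10.4 RPKM), of *Cx3cr1* in GFP- ECs (1.11 RPKM), in GFP+ HCs (54.1 RPKM), in GFP- HCs (107.4 RPKM) and in GFP+ SNS (0.626 RPKM), and of *Cxcr5* in both sorts of MCs (1.38 RPKM in GFP+ and 0.569 RPKM in GFP-). In GFP- SNS it was *Cxcr4* (1.14 RPKM). The same receptors led without the 12 pools, with *Cxcr5* at 1.52 and 0.658 RPKM in GFP+ and GFP- MCs, *Cx3cr1* at 0.747 RPKM in GFP+ SNS and *Cxcr4* at 1.27 RPKM in GFP- SNS. HCs had the most members, 28 in GFP+ pools (18 ligands, 8 receptors and 2 atypical receptors) and 26 in GFP- pools (15, 10 and 1). GFP+ ECs had 12 detected members (8, 3 and 1) and GFP- ECs 9 (4, 2 and 3). MCs had 11 in either sort, and GFP+ and GFP- SNS had 9 and 7, with at most 2 receptors in any of these 4 populations. When the 12 pools are left out, GFP+ and GFP- MCs had 11 and 10, and GFP+ and GFP- SNS 9 and 6. *Ccl25*, a ligand of *Ccr9* known from thymus and gut, was detected at similar low levels in all populations, with medians from 5.14 CPM in GFP+ ECs to 10.1 CPM in GFP+ SNS, and passed no test. The heatmap of the named members shows the macrophage-type ligands and receptors filled in HC pools and near-empty elsewhere.

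**Figure D2:**
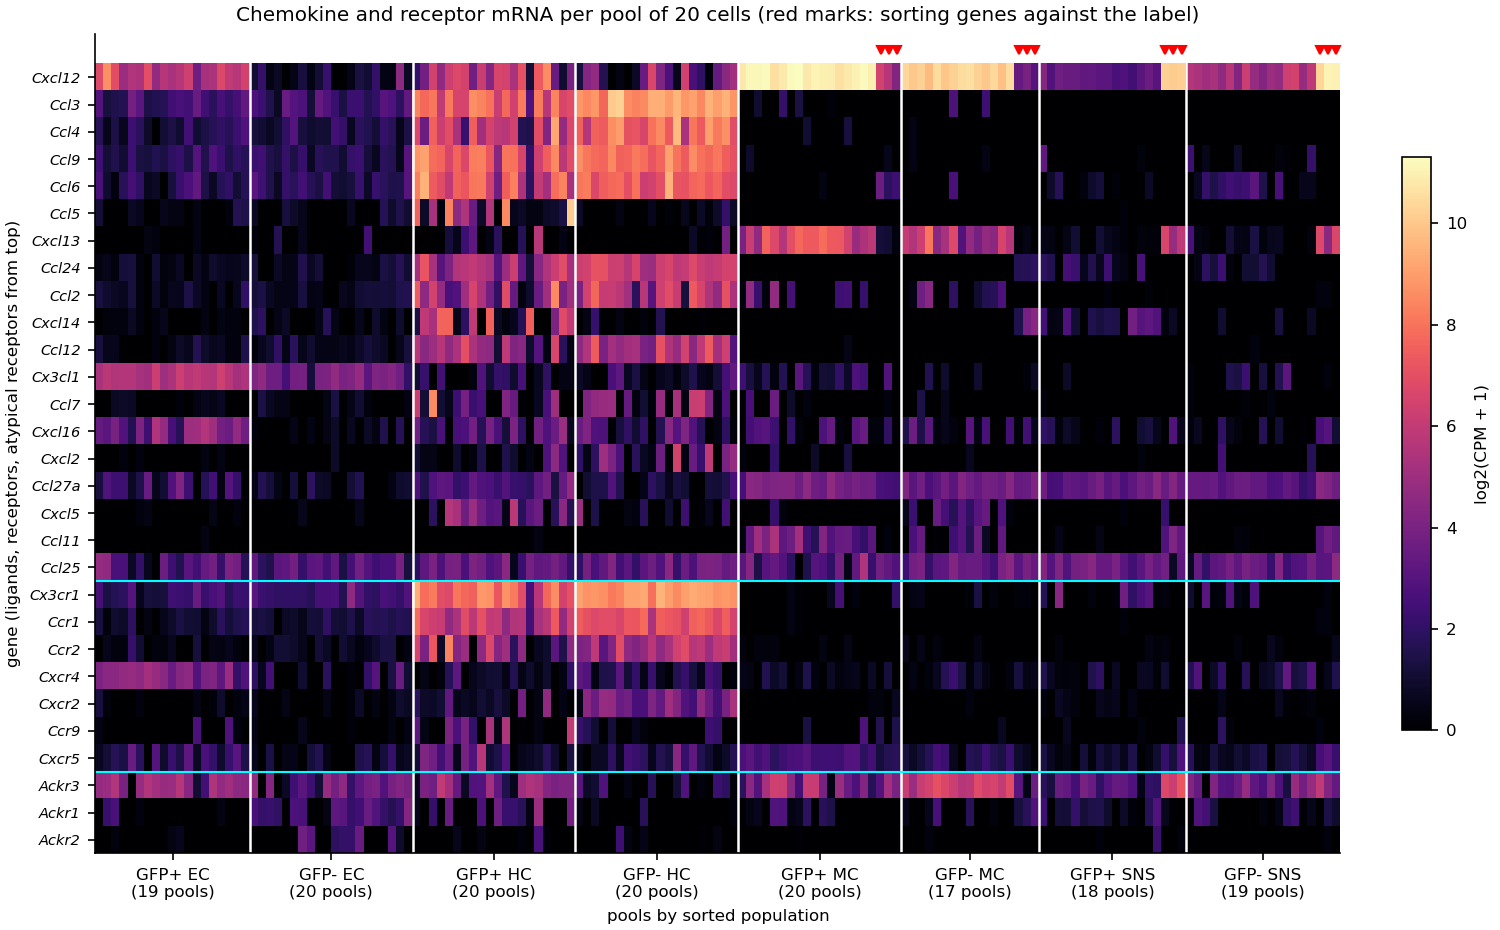
Level of the named members (rows, with ligands at the top, then receptors, then atypical receptors) in each passing pool (columns, grouped by sorted population), as log2(CPM + 1) in colour; red marks above the columns are the 12 pools whose sorting genes go against the label. *Ccl3*, *Ccl4*, *Ccl6*, *Ccl9*, *Cx3cr1* and *Ccr1* are bright in HC pools and *Cxcl12* in MC pools, and *Cxcl12* is darker in the marked MC columns than in the marked SNS columns.

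In ECs the GFP+ pools had more mRNA of 4 ligands and 2 receptors and less of 2 atypical receptors. The ligands were *Cxcl12*, *Cxcl16*, *Cx3cl1* and *Ccl27a*, the receptors *Cxcr4* and *Cxcr5*, and the atypical receptors *Ackr1* and *Ackr2*. These are 8 of 15 members tested, where 36% of all 15073 genes tested were called in this comparison. The median log2 fold change was 0.24 for the members tested and 0.10 for all genes, a description of the list only. Median spike-in shares were 1.673% in GFP+ EC pools and 0.95% in GFP- EC pools, and median mitochondrial shares 7.544% and 6.403%. Spike-in scaling lowered the median of all genes and the share of called genes that were higher, as given with the processing.

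*Cxcl12* (ENSMUSG00000061353, chromosome 6 from 117168535 to 117181367) encodes the ligand of Cxcr4 and Ackr3 that retains and attracts haematopoietic progenitors. Its level was 11.95 CPM at the lowest, 50.7 CPM at the median and 409.9 CPM at the highest in 19 GFP+ EC pools, and 0, 0.711 and 22.3 CPM in 20 GFP- pools. Of the GFP+ pools, 18 lay above every GFP- pool. The log2 fold change was 5.30 (standard error, SE, 0.50; adjusted p = 8.35e-12 in edgeR). *Cxcl16* (ENSMUSG00000018920, chromosome 11 from 70453983 to 70459984), a membrane-bound ligand of Cxcr6 that also acts as a scavenger receptor, had 2.06, 13 and 47.2 CPM in GFP+ pools and 0, 0.0874 and 2.32 CPM in GFP- pools. No GFP- pool reached 10 counts of it, 18 of 19 GFP+ pools did, and 18 lay above every GFP- pool. Its log2 fold change was 5.32 (SE 0.52, adjusted p = 1.51e-11 in edgeR). *Zmynd15*, whose exons it overlaps, also differed in range, with 0 to 13.35 CPM in GFP+ ECs and 0 to 0.33 CPM in GFP- ECs, and its part in the *Cxcl16* counts was not tested.

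*Cx3cl1* (ENSMUSG00000031778, chromosome 8 from 94772009 to 94782427) encodes fractalkine, a chemokine of endothelial and other cells that is tethered to the membrane and binds Cx3cr1. It had 31.2, 47.4 and 81.2 CPM in GFP+ ECs and 1.32, 15.2 and 26.3 CPM in GFP- ECs. All 19 GFP+ pools lay above all 20 GFP- pools. The log2 fold change was smaller than that of the ligands above, 1.76 (SE 0.21, adjusted p = 2.68e-09 in edgeR), from a level that was already present in GFP- ECs. *Ccl27a*, a ligand of Ccr10 best known from skin, had 0, 3.27 and 16.9 CPM in GFP+ pools and 0, 0.549 and 2.65 CPM in GFP- pools, with 10 of 19 GFP+ pools above every GFP- pool (log2 fold change 2.28, SE 0.59, adjusted p = 0.00128 by edgeR). Its near-identical copies *Ccl27* and *Ccl27b* were not detected, and how reads divide among them is uncertain. *Ccl3*, *Ccl4*, *Ccl6* and *Ccl9*, which mark macrophages, were tested in ECs and not called, with log2 fold changes of -0.01, 0.03, -0.24 and 0.12.

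Among the receptors, *Cxcr4* (ENSMUSG00000045382, chromosome 1 from 128588199 to 128592293) had 3.27, 20.5 and 35.6 CPM in GFP+ ECs and 0, 0.371 and 10.7 CPM in GFP- ECs. Of the GFP+ pools, 14 of 19 exceeded every GFP- pool, and 17 of 20 GFP- pools were below every GFP+ pool. The log2 fold change was 3.36 (SE 0.52, adjusted p = 9.5e-07 in edgeR), so the ligand *Cxcl12* and this receptor were both higher in the same population. *Cxcr5*, the receptor of Cxcl13, was low, with 0, 2.21 and 10.3 CPM in GFP+ pools and 0, 0.449 and 3.32 CPM in GFP- pools. Its log2 fold change was 1.85 (SE 0.54, adjusted p = 0.00449 in edgeR), and 7 of 19 GFP+ pools lay above every GFP- pool. With spike-in scaling it was 1.38 at an adjusted p of 0.0559, and with the haematopoietic marker score as a covariate 1.70 at an adjusted p of 0.0156, both by edgeR. *Ccl27a* also missed the threshold with spike-in scaling (1.64, adjusted p = 0.0167 by edgeR).

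Of the atypical receptors of ECs, *Ackr1* and *Ackr2* were lower in GFP+ pools. *Ackr1* (ENSMUSG00000037872, chromosome 1 from 173331886 to 173333750), the Duffy receptor that carries chemokines across venular endothelium, had 0, 3.49 and 18.7 CPM in GFP- ECs, while 15 of 19 GFP+ pools were at 0 and the highest reached 5.14 CPM. Of the GFP- pools, 8 of 20 lay above every GFP+ pool, and the log2 fold change was -3.14 (SE 0.75, adjusted p = 0.000579 in edgeR). *Cadm3*, which shares exon bases with it, was at a median of 0 CPM in both EC populations. *Ackr2*, a scavenger of inflammatory CC chemokines, had 5 counts in all over the GFP+ pools, of which 16 of 19 were at 0. No GFP+ pool was above 3 counts, so the ratio of the group levels is given, 32.3 in favour of GFP- ECs with a 95% counting interval from 13.5 to 100.9. Its median was 0 CPM in GFP- ECs too, with 12.2 CPM at the highest, and 8 of 20 GFP- pools lay above every GFP+ pool. *Ackr3*, which binds and removes Cxcl12, had 0, 26.99 and 48.4 CPM in GFP+ ECs and 0, 10.6 and 27.2 CPM in GFP- ECs, and did not pass the test (log2 fold change 1.22, SE 0.42, adjusted p = 0.0156 by edgeR).

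**Figure D3:**
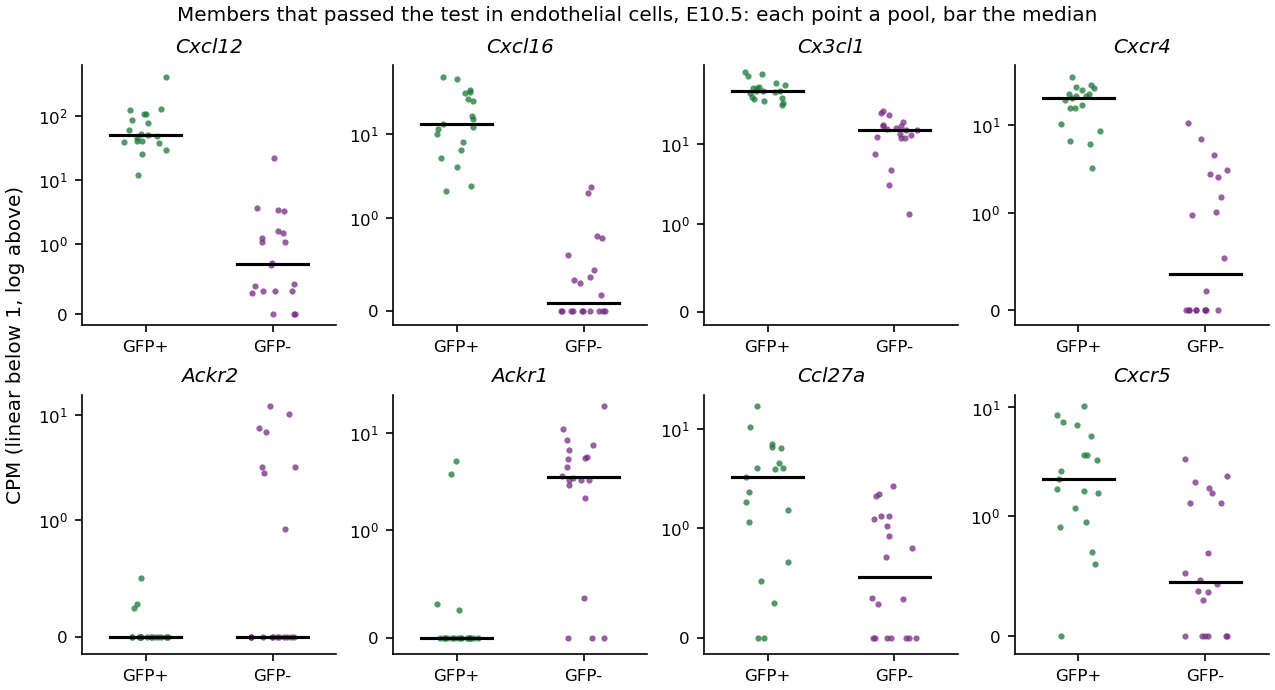
Levels of the 8 members called in ECs, in CPM on an axis that is linear below 1 and logarithmic above; each point is a pool (19 GFP+ in green, 20 GFP- in purple) and each bar the median. The groups do not meet for *Cx3cl1*, 18 of 19 GFP+ pools are above every GFP- pool for *Cxcl12* and *Cxcl16*, and many pools are at 0 for *Ackr1* and *Ackr2*.

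The promoters of *Cxcl12*, *Cx3cl1* and *Cxcr4* are shown because these genes were all higher in GFP+ ECs, 2 as a ligand and its receptor and *Cx3cl1* with no overlap between the groups. They run from 250 bases before to 50 bases after the start in the RefSeq annotation of GRCm38.p6, at chr6:117168285-117168584 on the plus strand, chr8:94771930-94772229 on the plus strand and chr1:128592250-128592549 on the minus strand. Of the members, 46 matched a promoter by symbol, 20 of them among the named members. Capitals mark matches, on the strand shown or the other, to AGATAA or TGATAA, which are of the GATA type, to GAGGAA of the ETS type, to TATAAA of the TATA type, to CCCGCCC of the GC box type and to TGACTCA of the AP-1 type.
Cxcl12: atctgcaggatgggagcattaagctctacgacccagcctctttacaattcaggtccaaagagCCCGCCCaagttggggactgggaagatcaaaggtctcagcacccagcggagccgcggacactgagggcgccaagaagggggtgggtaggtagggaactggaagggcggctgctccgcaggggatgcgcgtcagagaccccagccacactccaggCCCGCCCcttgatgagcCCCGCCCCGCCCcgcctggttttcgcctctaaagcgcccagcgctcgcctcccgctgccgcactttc
Cx3cl1: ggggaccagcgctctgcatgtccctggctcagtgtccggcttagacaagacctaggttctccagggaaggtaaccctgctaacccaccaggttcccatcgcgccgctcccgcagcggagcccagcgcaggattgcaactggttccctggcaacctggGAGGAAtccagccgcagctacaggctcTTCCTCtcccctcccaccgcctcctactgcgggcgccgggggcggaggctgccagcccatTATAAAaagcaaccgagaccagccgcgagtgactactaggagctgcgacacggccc
Cxcr4: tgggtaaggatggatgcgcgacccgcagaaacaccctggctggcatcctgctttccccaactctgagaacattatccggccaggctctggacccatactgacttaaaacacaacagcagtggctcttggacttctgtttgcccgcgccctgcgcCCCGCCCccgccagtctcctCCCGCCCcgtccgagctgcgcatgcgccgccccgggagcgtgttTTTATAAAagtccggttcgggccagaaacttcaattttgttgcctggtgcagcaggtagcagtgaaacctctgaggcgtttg
*Cxcl12* holds CCCGCCC at 4 places, of which the last pair overlap. *Cx3cl1* holds GAGGAA at 2 places, once on each strand, and TATAAA, and *Cxcr4* holds CCCGCCC at 2 places and TATAAA on both strands in overlap. Neither GATA type string occurs in these 3 windows. Of all 32851 promoters in the collection, 11.2% hold AGATAA, 9.05% TGATAA, 28.3% GAGGAA, 13.6% TATAAA, 25.6% CCCGCCC and 5.2% TGACTCA. Among the 20 named members with a promoter, AGATAA occurs in 3 (*Ackr1*, *Ccl27a* and *Ccr2*), TGATAA in 0, GAGGAA in 7, TATAAA in 7, CCCGCCC in 6 and TGACTCA in 1. These are matches of letters, and binding was not measured.

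Markers of other cell types also moved with GFP in ECs. All 7 mesenchymal markers tested were higher in GFP+ ECs, and the sum of the 9 listed was 26.3, 94 and 1596 CPM in GFP+ pools and 3.90, 15.6 and 71.1 CPM in GFP- pools, with *Col3a1* the most abundant. Mural markers were higher in 2 of 3 tested, with sums of 12.4, 231 and 3327 CPM and 3.31, 13.5 and 29.3 CPM and *Acta2* at the top. Nephric duct markers were higher in 3 of 4 tested, with sums of 42.9, 83.9 and 133.6 CPM and 0.175, 2.83 and 11.1 CPM, led by *Krt18* in GFP+ pools where *Cdh16* was at 0. Sympathetic markers were higher in 2 of 3 tested, with sums of 266, 382 and 822 CPM and 15.5, 46.1 and 148.6 CPM, nearly all from *Stmn2*. Haematopoietic markers were higher in 3 of 9 tested, with sums of 183, 286 and 484 CPM and 48.1, 103.2 and 151.5 CPM and *Laptm5* at the top. Endothelial markers themselves were higher in 9 of 10 and lower in 1, with medians of the sum at 10860 and 6455 CPM. No macrophage marker of 11 tested was called, with *Csf1r* and the others summing to medians of 79.7 and 77.3 CPM. Of the other lists, erythroid markers were higher in 1 of 3 tested (median sums of 12.2 and 7.61 CPM, led by *Hbb-y*), megakaryocyte markers in 1 of 6 tested (60.8 and 72.6 CPM, led by *Pf4*), and the lymphoid marker tested, *Thy1*, was lower (median sums of 0.848 and 1.54 CPM). No neutrophil marker of 2 and no neural crest marker of 1 tested was called. With the haematopoietic score as a covariate, *Cxcr5* was not called, as given above, and the other 7 members were. The part of the other lists in the chemokine results was not tested, apart from the pool with the highest mesenchymal sum. That pool, 1596 CPM, also had the highest mural sum and the highest *Cxcl12* level, 409.9 CPM. Without it, the same 8 members were called, and the log2 fold change of *Cxcl12* was 4.90 (SE 0.47, adjusted p = 1.2e-11 in edgeR).

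Of 39 genes listed as partners of chemokine signalling (G proteins, kinases, regulators and other ligands of the receptors), 32 were tested in ECs, 8 were higher and 4 were lower in GFP+ pools. *Mif*, a cytokine that binds Cxcr4 and Cxcr2, had 95.7, 210 and 369.5 CPM in GFP+ ECs and 641, 841 and 1132 CPM in GFP- ECs (log2 fold change -1.99). The G protein subunit gene *Gng2* fell by 2.72 on the log2 scale, from a median of 216 CPM in GFP- ECs to 35.3 CPM. *Rgs2*, which shortens G protein signals, rose by 1.15 on the log2 scale, from a median of 373 CPM in GFP- ECs to 909.9 CPM. *Pik3cg* rose by 1.98, *Gnai1* fell by 1.89 and *Elmo1* rose by 0.45 on the same scale.

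HCs gave the largest number of members. In GFP+ HCs, 4 ligands (*Cxcl14*, *Ccl5*, *Ccl27a* and *Cxcl12*), the receptor *Ccr9* and the atypical receptors *Ackr3* and *Ackr1* were higher, each in part of the pools. The ligands *Ccl3* and *Cxcl2* and the receptors *Cxcr2*, *Cx3cr1* and *Ccr1* were lower. In all 13 of 34 members tested were called, of which these 12 are described, where 26.6% of all 16200 genes tested were called. The median log2 fold change was -0.09 for the members tested and 0.05 for all genes.

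*Cxcl14* (ENSMUSG00000021508, chromosome 13 from 56288643 to 56296551), a chemokine of epithelia and stroma, had 0, 9.51 and 198.5 CPM in GFP+ HCs and 0, 0 and 3.53 CPM in GFP- HCs. It had at least 10 counts in 11 of 20 GFP+ pools, and 10 lay above every GFP- pool. The log2 fold change was 7.83 (SE 1.03, adjusted p = 1.13e-07 in edgeR). *Ccl5* (ENSMUSG00000035042, chromosome 11 from 83525778 to 83530518), a product of lymphoid cells, platelets and others that attracts leukocytes, had 0, 1.27 and 1128 CPM in GFP+ HCs and 0, 0.0755 and 3.35 CPM in GFP- HCs. A single pool held 51.98% of its summed CPM in GFP+ HCs, 10 of 20 pools had at least 10 counts and 9 lay above every GFP- pool. Its log2 fold change was 8.03 (SE 1.15, adjusted p = 5.28e-07 in edgeR).

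*Cxcl12* had 0.974, 54.95 and 383 CPM in GFP+ HCs and 0, 5.37 and 100.1 CPM in GFP- HCs, which overlap widely, since 4 of 20 GFP+ pools lay above every GFP- pool and 6 GFP- pools below every GFP+ pool. The log2 fold change was 2.12 (SE 0.66, adjusted p = 0.00977 in edgeR), just inside the threshold. It missed the threshold with spike-in scaling (1.83, adjusted p = 0.0349), with no filter on low counts (2.09, adjusted p = 0.0208), with the stricter filter (2.08, adjusted p = 0.0106) and with the macrophage score as a covariate (1.47, adjusted p = 0.127), all by edgeR. *Ccl27a* had 1.53, 5.89 and 24.2 CPM in GFP+ HCs and 0, 1.21 and 6.41 CPM in GFP- HCs, with 8 GFP+ pools above every GFP- pool and 12 GFP- pools below every GFP+ pool (log2 fold change 2.13, SE 0.47, adjusted p = 0.000303 by edgeR).

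*Ccl3* (ENSMUSG00000000982, chromosome 11 from 83647844 to 83649355) encodes a macrophage product that attracts monocytes through Ccr1. Its level was 6.02, 214 and 404 CPM in GFP+ HCs and 209, 483 and 1188 CPM in GFP- HCs. Of the GFP+ pools 9 lay below every GFP- pool, and of the GFP- pools 14 lay above every GFP+ pool. The log2 fold change was -1.51 (SE 0.28, adjusted p = 4.07e-05 in edgeR). *Cxcl2*, which attracts neutrophils through Cxcr2, had 0, 0.349 and 22.04 CPM in GFP+ HCs and 0, 3.26 and 88.7 CPM in GFP- HCs (log2 fold change -2.67, SE 0.81, adjusted p = 0.00761 by edgeR), and 4 of 20 GFP- pools lay above every GFP+ pool. *Ccl4*, the close relative of *Ccl3*, had medians of 65.98 and 189 CPM in GFP+ and GFP- HCs and missed the threshold (log2 fold change -1.47, adjusted p = 0.0103 by edgeR). *Ccl9*, *Ccl6*, *Ccl24*, *Ccl2*, *Ccl12*, *Ccl7*, *Cxcl10* and *Cxcl5* were also tested and not called. For *Ccl9* the levels were 3.17, 186 and 553 CPM in GFP+ HCs and 131.2, 229 and 552 CPM in GFP- HCs, and for *Ccl6* 2.54, 156.7 and 722.5 CPM and 73.8, 166 and 736 CPM. *Ccl24* had 1.27, 36.9 and 144.9 CPM and 28.4, 77.5 and 140 CPM, *Ccl2* 0.262, 24.5 and 375 CPM and 1.42, 61.2 and 209 CPM, and *Ccl12* 0.303, 22.7 and 126.9 CPM and 6.63, 35.2 and 170.4 CPM. These ranges overlap. *Ccl7*, which attracts monocytes through Ccr2, had medians of 2.46 and 7.78 CPM, and a single GFP+ pool with 379 CPM held 68.98% of its summed level there. That pool also had 148.6 CPM of *Ccr2*. *Cxcl10* had medians of 0.284 and 6.04 CPM and *Cxcl5* of 6.97 and 0.0648 CPM, the latter with a log2 fold change of 2.61 at an adjusted p of 0.0109 by edgeR.

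Among the receptors of HCs, *Cx3cr1* (ENSMUSG00000052336, chromosome 9 from 119901616 to 120069879), the fractalkine receptor of macrophages and microglia, had 5.07, 211 and 683 CPM in GFP+ pools and 242, 493 and 727 CPM in GFP- pools. Of the GFP+ pools 12 of 20 lay below every GFP- pool, with a log2 fold change of -0.997 (SE 0.27, adjusted p = 0.00266 in edgeR). *Ccr1*, a receptor of Ccl3 and Ccl9, had 4.44, 59.6 and 231 CPM and 40.6, 143.2 and 222 CPM, and 6 GFP+ pools lay below every GFP- pool and 1 above (log2 fold change -0.94, SE 0.26, adjusted p = 0.00384 by edgeR). *Cxcr2*, the neutrophil receptor, had 0, 0.732 and 23.4 CPM and 0.377, 12.1 and 39.4 CPM, with 6 GFP+ pools below every GFP- pool (log2 fold change -2.26, SE 0.56, adjusted p = 0.00122 by edgeR).

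*Ccr9*, the receptor of Ccl25 that is known from thymus-seeding progenitors, was the receptor that was higher, with 0, 0.335 and 64.2 CPM in GFP+ HCs and 0, 0 and 4.21 CPM in GFP- HCs. It had at least 10 counts in 8 of 20 GFP+ pools, 7 lay above every GFP- pool, and the log2 fold change was 3.59 (SE 0.95, adjusted p = 0.00246 in edgeR). All 8 of these pools were among the 10 with at least 10 counts of *Ccl5*, and the pool with 1128 CPM of *Ccl5* also had the 64.2 CPM of *Ccr9*. That pool had the highest sympathetic sum of the GFP+ HC pools too, 2421 CPM, and 80.6 CPM of lymphoid markers. Without it the same 13 members were called, with log2 fold changes of 6.95 for *Ccl5* (SE 1.02, adjusted p = 9.7e-07) and 3.02 for *Ccr9* (SE 0.93, adjusted p = 0.00921) in edgeR. For *Ccl5* and *Cxcl14* the pools with at least 10 counts, 10 and 11, had 6 in common. *Ccr2*, which binds Ccl2 and marks monocytes, was not called, at 0, 18.7 and 345 CPM in GFP+ HCs and 7.50, 36.6 and 123.5 CPM in GFP- HCs. Nor were *Cxcr3* (medians of 3.55 and 1.02 CPM), *Cxcr4* (0.471 and 1.86 CPM) and *Cxcr5* (1.67 and 1.75 CPM).

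The 2 atypical receptors that were tested in HCs were both higher in GFP+ pools. *Ackr3* (ENSMUSG00000044337, chromosome 1 from 90203980 to 90216751) had 0.509, 15.3 and 62.04 CPM in GFP+ HCs and 0, 0.276 and 7.16 CPM in GFP- HCs, with 14 of 20 GFP+ pools above every GFP- pool (log2 fold change 3.60, SE 0.65, adjusted p = 2.24e-05 by edgeR). *Ackr1* had 0, 0.417 and 29.1 CPM and 0, 0 and 2.42 CPM, and 8 GFP+ pools lay above every GFP- pool (log2 fold change 4.35, SE 0.92, adjusted p = 0.000209 by edgeR). *Cadm3* reached at most 2.52 CPM in GFP+ HCs.

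**Figure D4:**
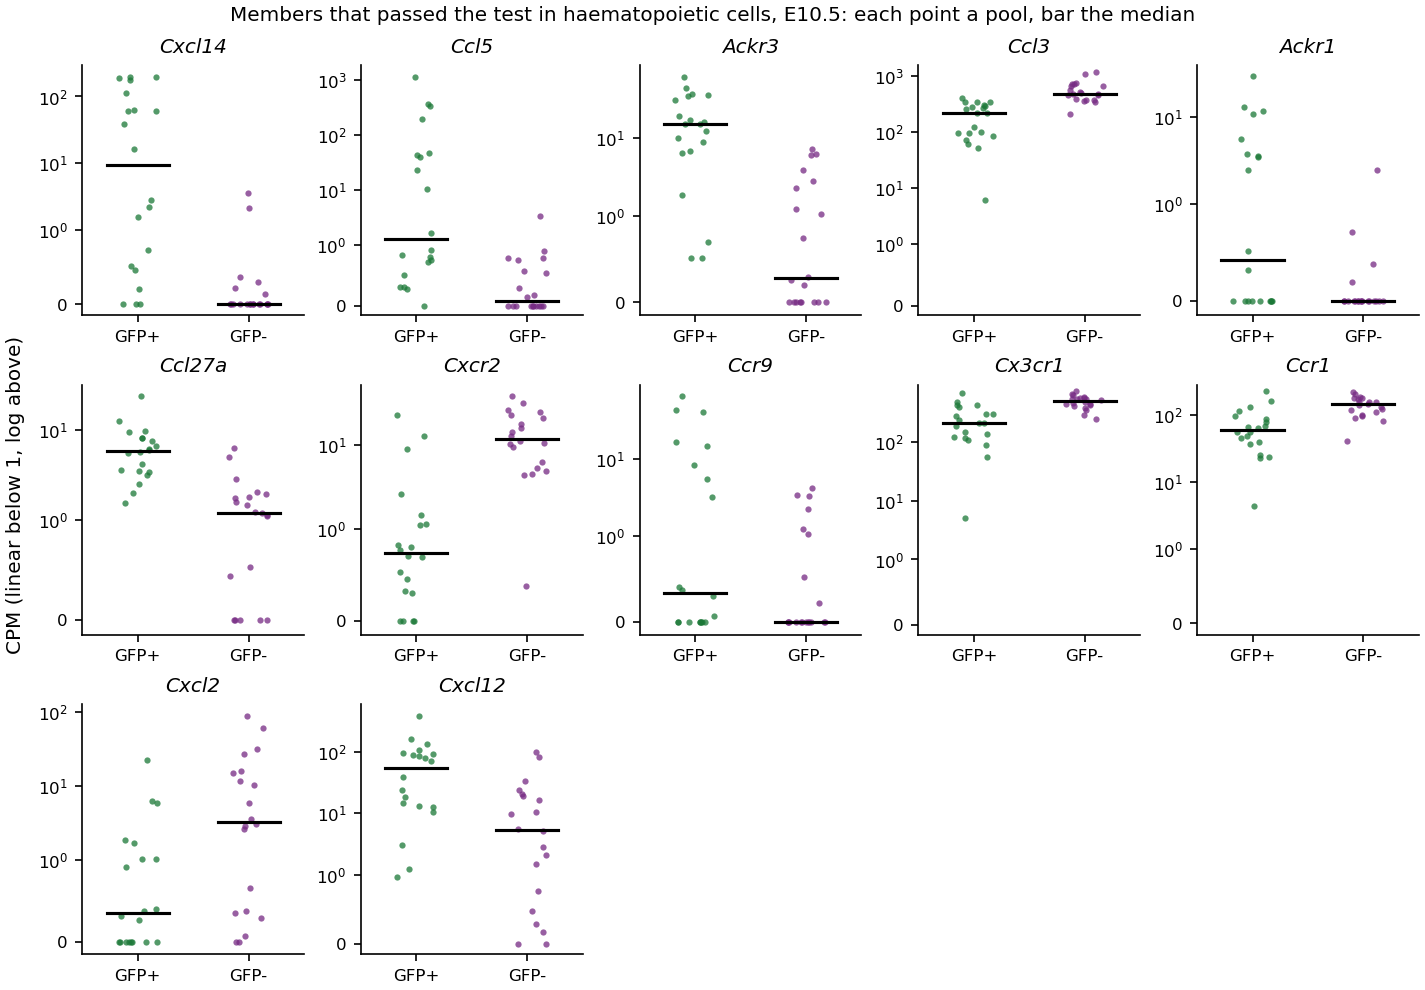
Levels of 12 members called in HCs, in CPM on an axis that is linear below 1 and logarithmic above; each point is a pool (20 GFP+ in green, 20 GFP- in purple) and each bar the median. Most GFP+ pools are spread from 0 upward for *Cxcl14*, *Ccl5* and *Ccr9*, and no gene shows a full gap between the groups.

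GFP+ HC pools differed from GFP- pools in markers of many cell types. Megakaryocyte markers were higher in 7 of 7, with sums of 1666, 10050 and 59260 CPM in GFP+ pools and 139.9, 600.9 and 3962 CPM in GFP- pools, and *Pf4* was the most abundant with a mean of 10190 CPM in GFP+ HCs. Mesenchymal markers were higher in 8 of 9 (18.1, 363 and 957 CPM against 3.33, 42.8 and 167 CPM, led by *Col3a1*), sympathetic markers in 8 of 8 tested (5.61, 133.5 and 2421 CPM against 2.56, 13.5 and 31.6 CPM, led by *Tubb3*) and nephric duct markers in 5 of 5 tested (2.07, 52.7 and 328 CPM against 0.291, 7.64 and 19.5 CPM, led by *Krt18*). Mural markers were higher in 4 of 5 tested (17.6, 75.4 and 848 CPM against 6.37, 11.2 and 67.8 CPM, led by *Acta2*), endothelial markers in 7 of 10 (150.6, 264 and 725 CPM against 70.2, 126.7 and 251 CPM, led by *Esam*), neural crest markers in 3 of 4 tested (0.701, 18.95 and 153.8 CPM against 0.305, 2.10 and 8.68 CPM) and liver and coelomic markers in 3 of 4 tested (0.701, 32.1 and 111.4 CPM against 0, 2.72 and 18.2 CPM, led by *Wt1*, with *Alb* at 0 in GFP+ HCs).

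Lower in GFP+ HCs were 3 of 12 macrophage markers (248, 5811 and 12340 CPM against 6001, 8226 and 13260 CPM, led by *C1qb*), 4 of 4 neutrophil markers tested (0.262, 20.6 and 148.8 CPM against 9.42, 214 and 26910 CPM, led by *S100a8*) and 8 of 10 haematopoietic markers, with 1 higher (1940, 3424 and 5636 CPM against 5020, 5643 and 7547 CPM, led by *Tyrobp*). Lymphoid and innate lymphoid markers were higher in 1 of 4 tested (0.317, 29.7 and 208 CPM against 2.79, 18.02 and 61.1 CPM, led by *Cd7*). Of the erythroid markers 1 of 6 was lower, and the 1 mast cell and basophil marker tested was not called, with *Prss34* and *Gzmb* at 0 in GFP+ HCs. The pool with the lowest macrophage sum, 248 CPM, had the highest megakaryocyte sum, 59263 CPM, and held 6.02 CPM of *Ccl3*, 5.07 CPM of *Cx3cr1*, 4.44 CPM of *Ccr1* and 177 CPM of *Cxcl14*. With the mean of the 12 macrophage markers as a covariate, 7 of the 34 members tested were called, and *Cx3cr1* (log2 fold change -0.44, adjusted p = 0.042), *Ccr1* (-0.46, adjusted p = 0.145), *Cxcl2* (-2.22, adjusted p = 0.0663) and *Ackr1* (3.08, adjusted p = 0.0177) no longer passed by edgeR. *Ccl3* still did, at -1.12 with an adjusted p of 0.00308 by edgeR. For *Ccl5* the same fit gave 8.004 and for *Cxcl14* 7.48. The 26.6% of all genes called is that of the fit without this covariate. The share with it is not given, so the fall to 7 is not read as particular to the members. The part of the other lists in these results was not tested.

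Of the 39 partners 38 were tested in HCs, with 5 higher and 12 lower in GFP+ pools. The platelet chemokines *Ppbp* and *Pf4*, both also on the megakaryocyte list, rose by 6.55 and 3.82 on the log2 scale, *Ppbp* with 68.3, 1717 and 11610 CPM in GFP+ HCs and 1.42, 14.2 and 117.7 CPM in GFP- HCs. The receptor kinase gene *Grk2* fell by 0.74, from a median of 146.2 CPM in GFP- HCs to 91.5 CPM. *Gnb1* rose by 0.59, *Gnai2* fell by 0.64 and *Rgs2* fell by 1.18 on the log2 scale.

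Whether GFP went with a different change in HCs than in ECs was tested as the difference of the log2 fold changes, HC minus EC, in a fit of the 4 populations. It was called for 10 of 37 members tested, where 22.7% of 17851 genes were called, with medians of -0.19 for the members and 0.11 for all genes. *Cxcl16* (-4.85, SE 0.80, adjusted p = 9.66e-07), *Cxcr4* (-4.53, SE 0.78, adjusted p = 2.47e-06) and *Cxcl12* (-3.20, SE 0.85, adjusted p = 0.00201) had a higher log2 fold change with GFP in ECs than in HCs by edgeR's test of the difference. In HCs themselves *Cxcl16* (0.48, adjusted p = 0.552) and *Cxcr4* (-1.16, adjusted p = 0.105) were not called by edgeR. *Ccl5* (8.37, SE 1.56, adjusted p = 1.08e-05), *Ackr1* (7.45, SE 1.19, adjusted p = 4.73e-07) and *Ackr3* (2.37, SE 0.75, adjusted p = 0.00971) had the larger GFP+ level relative to GFP- in HCs by the same test in edgeR. *Ackr1* was lower with GFP in ECs and higher with GFP in HCs. *Ccl3* differed by -1.43 (SE 0.42, adjusted p = 0.00511 in edgeR), but by -0.74 at an adjusted p of 0.203 with spike-in scaling in edgeR. *Cxcl14*, *Ackr2* and *Cxcl13* also passed, at 9.25, 4.95 and 4.69, but no GFP+ EC pool had more than 3 counts of them, so these sizes depend on the prior count of the fit. *Cxcl13* levels in HCs were 0, 0 and 52.2 CPM with GFP and 0, 0 and 13.7 CPM without. *Cx3cl1*, which was not called in HCs, narrowly missed the test of the difference (-1.83, adjusted p = 0.0105 by edgeR). Without the EC pool rich in mesenchymal markers 9 of these members were called, and *Ackr3* missed the threshold at an adjusted p of 0.0103 by edgeR.

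Between HCs and ECs themselves, 32 of 37 members tested were called, 29 higher and 3 lower in HCs, where 50.6% of 17851 genes were called. The median log2 fold change was 3.84 for the members tested and 0.04 for all genes, and 4.56 for the members when the 4 with no EC pool above 3 counts are taken at the ratio of their group levels. HCs had 28 and 26 detected members and ECs 12 and 9, so many of those tested passed the filter through HC pools, which bears on the direction and the median, and both describe the genes tested only. By role, 17 ligands were higher and 1 lower of 21 tested, 12 receptors were higher and 1 lower of 13, and 1 atypical receptor was lower of 3. Log2 fold changes were above 6 for, among others, *Ccl24* (6.46), *Ccl9* (6.40), *Ccr2* (6.33), *Ccr1* (6.29), *Cx3cr1* (6.28) and *Ccl3* (6.11). In ECs these had low levels, for example 0, 0.980 and 2.75 CPM of *Ccr1* in GFP+ ECs and 0.519, 3.53 and 10.9 CPM of *Cx3cr1*. *Cxcl2* had 6 counts over 39 EC pools and a ratio of the group levels of 184 (95% counting interval 84.4 to 503), *Cxcl5* 8 counts and a ratio of 81.05 (40.9 to 188), *Xcr1* 8 counts and 35.4 (17.8 to 82.6), and *Ccr3* 6 counts and 25.3 (11.4 to 69.7). Lower in HCs were *Cx3cl1* (log2 fold change -3.86), *Cxcr4* (-1.76) and *Ackr3* (-1.66), so the ligand *Cx3cl1* was higher in ECs and its receptor *Cx3cr1* in HCs. The *Cxcr4* value rests on GFP+ ECs, with a mean of 18.7 CPM, since the means were 1.74 CPM in GFP- ECs, 1.15 CPM in GFP+ HCs and 2.58 CPM in GFP- HCs. For *Ackr3* the means were 26.1 CPM in GFP+ ECs, 10.9 CPM in GFP- ECs, 18.7 CPM in GFP+ HCs and 1.61 CPM in GFP- HCs. Its mean was thus higher in GFP+ HCs than in GFP- ECs. Without the EC pool rich in mesenchymal markers, 31 members were called. Of the 39 partners 21 were higher and 8 lower in HCs, led by *Rac2* (6.46), *Vav1* (5.95), *Rgs18* (6.38), *Itgb2* (5.97) and *Pf4* (5.70). For the difference of the GFP changes the partners gave 9 higher and 10 lower, with *Mif* (1.97), *Rgs2* (-2.34), *Gng2* (2.30), *Ppbp* (6.80), *Pf4* (4.14) and *Pik3cg* (-2.62) at the smallest p-values.

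At E11.5 the *Cxcl12* results turned on the 12 pools against their labels. In MCs with all pools, the neutrophil-attracting ligand *Cxcl5* was lower in GFP+ pools, the only member called of 13 tested, where 4.36% of 16026 genes were called. Without the 12 pools *Cxcl12* was higher and *Cxcl5* and *Ackr3* were lower in GFP+ MCs, 3 of 13 members tested, where 10.4% of 15226 genes were called. With all pools the medians were 0.34 for the members and -0.01 for all genes.

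*Cxcl12* had 1555, 2032 and 2549 CPM in the 17 GFP+ MC pools that fit their label and 819.9, 1208 and 1515 CPM in the 14 such GFP- pools. All 17 lay above all 14, and the log2 fold change was 0.73 (SE 0.08, adjusted p = 8.56e-08 in edgeR). The 3 GFP+ MC pools against their label had 17.5, 50.2 and 85.6 CPM and the 3 GFP- MC pools 7.16, 9.97 and 14.6 CPM. With them the log2 fold change was nearly the same, 0.77, and its SE 0.49 (adjusted p = 0.371 by edgeR). *Ackr3* had 0.362, 18.5 and 80.2 CPM in GFP+ and 28.8, 78.4 and 129.9 CPM in GFP- pools that fit their label, and 11 of 17 GFP+ pools lay below every GFP- pool. Its log2 fold change was -1.59 (SE 0.43, adjusted p = 0.00869 in edgeR) without the 12 pools and -1.41 (SE 0.48, adjusted p = 0.0537) with them.

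*Cxcl5* was low, with 0, 0 and 3.42 CPM in GFP+ and 0, 3.41 and 10.4 CPM in GFP- MC pools that fit their label, and 7 of 14 GFP- pools lay above every GFP+ pool. Its log2 fold change was -4.09 (SE 0.91, adjusted p = 0.00136 in edgeR) without the 12 pools and -4.03 (SE 0.93, adjusted p = 0.00376) with them. In GFP+ MCs 15 of 17 of these pools were at 0 and 1 had at least 10 counts. *Cxcl13*, the ligand of Cxcr5 and an organizer of lymphoid tissue, had 15.4, 106.3 and 230 CPM in GFP+ and 6.41, 41.5 and 274 CPM in GFP- MC pools that fit their label and was not called. *Ccl11*, which attracts eosinophils, had 0.221, 9.26 and 40.5 CPM and 0, 1.41 and 11.6 CPM there, and *Cxcr5* 2.63, 4.67 and 7.82 CPM and 0, 2.07 and 4.82 CPM, and neither was called. *Cx3cl1* had 0, 1.45 and 7.60 CPM in GFP+ and 0, 0 and 2.02 CPM in GFP- pools of the same kind, with 8 of 17 GFP+ pools above every GFP- pool. With all pools its log2 fold change was 2.82 (adjusted p = 0.0191 by edgeR), and without the 12 it was 2.83 (adjusted p = 0.0142). Of the marker lists, 4 of 8 sympathetic markers tested were lower and 2 of 6 mural markers higher in GFP+ MCs with all pools, and the sympathetic sum ran to 5857 CPM in GFP- MC pools, all above 1700 CPM in the 3 pools against the label and at most 116.5 CPM in the others. Of 5 sympathetic markers tested without the 12 pools 1 was higher, 4 of 6 mural markers were higher, and of 9 mesenchymal markers 4 were higher and 1 lower. Over all pools, those against their label included, the mural sum had medians of 6625 CPM in GFP+ MCs and 2730 CPM in GFP- MCs with *Acta2* at the top. In the pools that fit their label the mesenchymal sum was 3987, 5038 and 5759.6 CPM with GFP and 2824, 3317 and 4256 CPM without. The part of both lists in the *Cxcl12* result was not tested. No partner of 23 tested was called in MCs with all pools by edgeR, and without the 12 pools *Mif* was lower (-0.53) and *Rac1* higher (0.50).

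In SNS cells 1 member was called with all pools, *Cxcl14*, of 17 tested, where 3.87% of 16143 genes were called, and medians were 0.23 for the members and 0.00 for all genes. Without the 12 pools *Cxcl14* was higher and *Cxcl12* lower in GFP+ SNS, 2 of 12 members tested, where 10.4% of 15658 genes were called. *Cxcl14* had 0, 1.88 and 12.6 CPM in the 15 GFP+ SNS pools that fit their label and 0, 0 and 1.46 CPM in the 16 such GFP- pools. Of the GFP+ pools 10 of 15 lay above every GFP- pool, and the log2 fold change was 4.02 (SE 0.82, adjusted p = 0.000491 in edgeR), against 4.003 (SE 0.80, adjusted p = 0.00109) with all pools. With the haematopoietic and endothelial scores as covariates it was 2.21 at an adjusted p of 0.358 by edgeR. *Cxcl12* had 4.43, 8.07 and 19.6 CPM in GFP+ and 18.1, 35.8 and 87.3 CPM in GFP- SNS pools that fit their label. Of the GFP+ pools 14 of 15 lay below every GFP- pool, with a log2 fold change of -2.22 (SE 0.23, adjusted p = 1.21e-08 in edgeR). The 3 GFP+ SNS pools against their label had 1117 to 1194 CPM and the 3 GFP- SNS pools 1304 to 2129 CPM, and with them the log2 fold change was -0.69 (adjusted p = 0.731 by edgeR).

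Of the signalling receptors, *Cx3cr1* was detected in GFP+ SNS (mean 2.82 CPM) and *Cxcr4* and *Cxcr5* in GFP- SNS (means 2.055 and 1.76 CPM), *Cxcr5* with all pools only. *Cxcr4*, which guides migrating neurons in other regions, had 0, 0.219 and 2.78 CPM in GFP+ and 0, 1.42 and 9.20 CPM in GFP- SNS (log2 fold change -1.70, adjusted p = 0.133 by edgeR, and -1.77 at 0.0942 without the 12 pools). *Ackr3* had 0.434, 6.02 and 14.5 CPM and 0, 10.03 and 27.6 CPM in the GFP+ and GFP- pools that fit their label and was not called. Of the 9 sympathetic markers 5 were higher in GFP+ SNS, with sums of 44.9, 1216 and 4406 CPM and 47.1, 354 and 947 CPM, led by *Tubb3* in GFP+ pools. Neural crest and Schwann cell markers were lower in 1 of 6, with median sums of 786.5 and 1084 CPM. The haematopoietic markers had 1 of 3 tested higher, with median sums of 42.9 and 14.3 CPM in GFP+ and GFP- SNS. *Laptm5* was the most abundant of them, with means of 23.8 and 12.5 CPM. Of the macrophage markers none of 2 tested was called, with median sums of 4.62 and 3.13 CPM led by *Cd68*. *Adgre1*, *Fcgr3*, *C1qc* and *Ctss* were at 0 in GFP+ SNS. Leaving out the 12 pools, 9 of 9 sympathetic markers were higher and 3 of 6 neural crest and Schwann cell markers lower. Mesenchymal markers were called in 0 of 9 with all pools, but 7 of 9 were lower without the 12, and in the pools that fit their label their sum was 111.7, 223 and 345 CPM in GFP+ SNS and 392, 525 and 929.9 CPM in GFP- SNS, with no overlap, and *Pdgfrb* had medians of 0.595 and 4.23 CPM. With the haematopoietic and endothelial scores as covariates *Cxcl14* lost its call, as given above. The part of the mesenchymal, sympathetic, neural crest and macrophage lists in the *Cxcl14* and *Cxcl12* results was not tested. Among the partners only *Gng2* was called in SNS, 1 of 21 tested, with a log2 fold change of 0.68 and medians of 200.3 and 112.3 CPM. *Gng2* (0.77) and *Grk3* (2.31) were higher and *Gnai2* (-0.27) lower without the 12 pools.

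Between SNS cells and MCs, 8 of 20 members tested were called with all pools, where 23.4% of 17733 genes were called, and the medians were -0.67 for the members, also with the 2 at the floor taken at their group ratios, and 0.00 for all genes. Without the 12 pools 15 of 19 were called, where 40.2% of 17309 genes were called, and these included the 8. MCs then had more *Cxcl12* (log2 fold change of SNS over MC -6.33), *Cxcl13* (-7.36), *Ackr3* (-2.40), *Cxcr5* (-1.82), *Cxcl1* (-3.96), *Cxcl16* (-2.28) and *Ccl27a* (-0.56). *Ccl11*, *Ccl2* and *Cxcl5* were higher in MCs as well, by ratios of the group levels of 248 (95% counting interval 113.7 to 677), 253 (69.7 to 2099) and 289 (51.3 to 11450), since the SNS pools held 6, 2 and 1 counts of them. SNS cells had more *Ccl6* (3.01) and *Cx3cr1* (2.90), more *Cxcl10*, by a ratio of 71.4 (24.2 to 349) over 3 counts in MCs, and more *Ccl24* and *Cxcl14*, which were at 0 in all 31 MC pools, so that *Ccl24* was at least 52.3-fold and *Cxcl14* at least 85.9-fold higher. With all pools, *Cxcl12* differed by -2.38 and *Cxcl13* by -2.64 on the log2 scale, and *Ccl2* and *Cxcl10* by ratios of 115.8 (44.9 to 427) and 78.2 (26.5 to 381). Of the partners 5 were higher and 4 lower of 24 tested in SNS with all pools, with *Mif* (0.65), *Prex1* (1.76), *Ccrl2* (-4.28), *Gnai2* (-0.37), *Gng2* (0.69) and *Rgs16* (2.20) at the smallest p-values. Of 23 tested without the 12 pools 7 were higher and 6 lower, with *Gng2* (1.14), *Mif* (0.85), *Rgs16* (4.76), *Prex1* (2.62), *Gnai2* (-0.54) and *Rarres2* (-3.09) at the smallest.

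The change with GFP in SNS minus that in MCs was called for 4 of 20 members with all pools, where 9.66% of 17733 genes were called, and the medians were -0.12 for the members and -0.01 for all genes. Without the 12 pools it was called for 2 of 19, where 10.4% of 17309 genes were called, and 1 of these was among the 4. *Cxcl12* differed by -2.95 (SE 0.24, adjusted p = 1.47e-14 in edgeR) without the 12 pools, being higher with GFP in MCs and lower with GFP in SNS. With all pools it differed by -1.46 at an adjusted p of 0.395 by edgeR. *Cx3cl1* differed by -6.80 (SE 1.31, adjusted p = 8.12e-05 in edgeR) without them and by -6.71 with them, at low levels throughout, with at most 8.05 CPM in any of these pools. Of the 18 GFP+ SNS pools 17 were at 0 and the other had 4 counts of *Cx3cl1*, so this size too depends on the prior count. *Cxcl14*, *Cxcl5* and *Ccl24* passed with all pools (10.39, 7.05 and 5.16), each with a population in which no pool had more than 3 counts, so their sizes depend on the prior count. *Cxcl5* did not pass without the 12 pools (adjusted p = 0.104 by edgeR), and for *Cxcl14* and *Ccl24* the difference could not be estimated, since no MC pool then held a count of them. The 3 GFP- MC pools against their label held 1.91, 14.03 and 21.5 CPM of *Cxcl14* and 2.18, 2.31 and 2.77 CPM of *Ccl24*, and the other MC pools held none of either. Of the partners *Gng2* was called for this difference (1.25), 1 of 24, and without the 12 pools *Gng2* (1.05) and *Rarres2* (-2.62) of 23.

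Ligands and receptors were last set side by side as 14 known pairs, chosen after the values were seen. A pair was counted in a population when both genes were detected. This held for 9 pairs in GFP+ HCs and 11 in GFP- HCs, for 3 in GFP+ ECs and 1 in GFP- ECs, for 2 in either sort of MCs, and for 1 in GFP+ SNS and 2 in GFP- SNS. In GFP+ ECs the pairs were *Cxcl12* (9.83 RPKM) with *Cxcr4* (10.4 RPKM) and with *Ackr3* (7.81 RPKM), and *Cx3cl1* (12.7 RPKM) with *Cx3cr1* (0.821 RPKM). In GFP- ECs *Cxcl12* was not detected, at 0.259 RPKM, and *Cx3cl1* (3.66 RPKM) with *Cx3cr1* (1.11 RPKM) was the only pair. *Cx3cr1* was at 107.4 RPKM in GFP- HCs, and the part of the macrophage list in its EC level was not tested. GFP- HCs held *Ccl3* (733 RPKM) with *Ccr1* (49.3 RPKM) and *Cxcl2* (6.75 RPKM) with *Cxcr2* (4.89 RPKM), a pair not detected in GFP+ HCs. GFP+ HCs held *Ccl25* (1.30 RPKM) with *Ccr9* (0.953 RPKM), a pair not detected in GFP- HCs. MCs held *Cxcl12* (214.5 RPKM in GFP+ and 123.3 RPKM in GFP-) with *Ackr3* (7.82 and 20.3 RPKM) and *Cxcl13* (82.2 and 44.2 RPKM) with *Cxcr5*, while *Cxcr4* was not detected in either sort. In SNS both pairs rest on *Cxcl12*, whose mean there comes mostly from the pools against their label. These counts were the same without the 12 pools, 2 in either sort of MCs, 1 in GFP+ SNS and 2 in GFP- SNS. The plot of the pairs gives all 14, and mRNA in the same pools does not show that ligand and receptor meet.

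**Figure D5:**
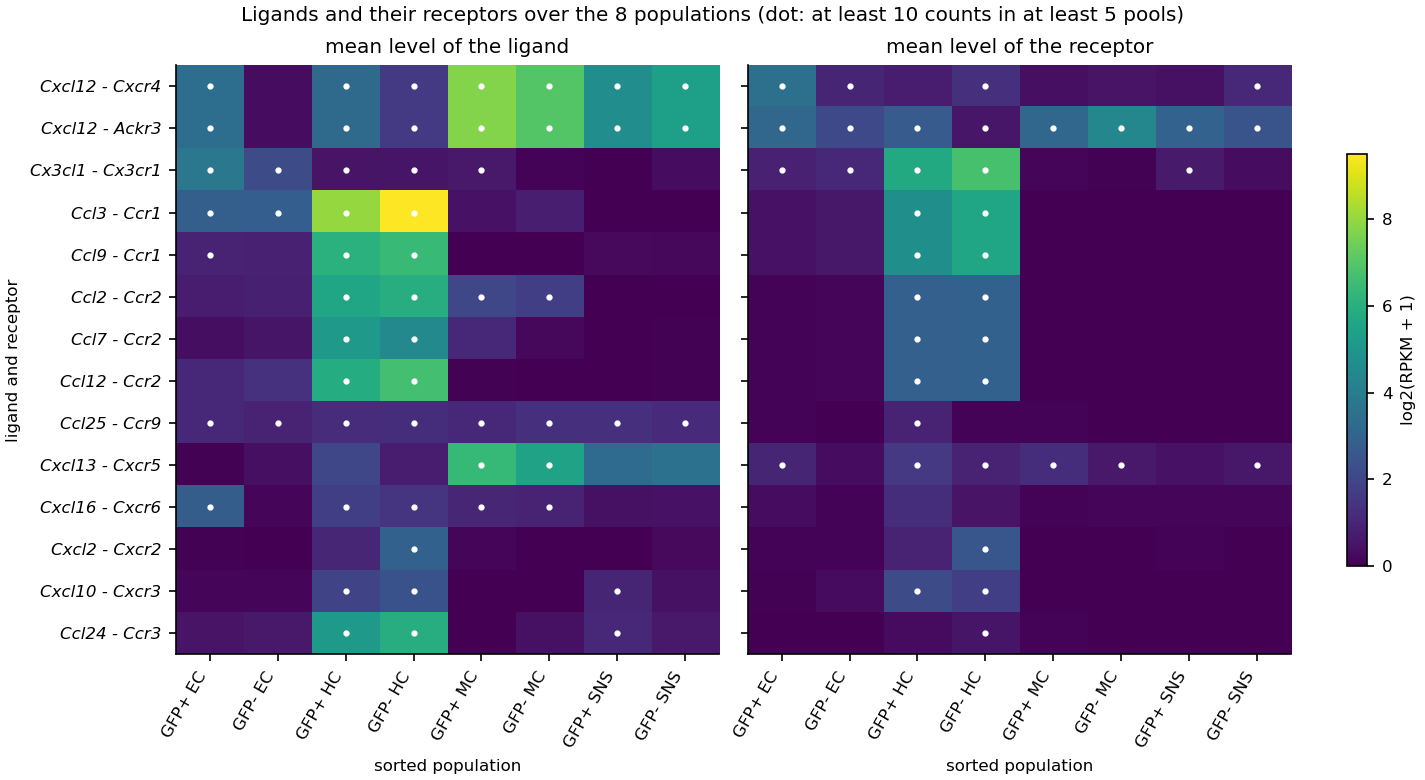
Mean level of the ligand (left) and of the receptor (right) of 14 ligand-receptor pairs in the 8 sorted populations, as log2(RPKM + 1) in colour; a white dot marks a gene that is detected in that population. HCs have dots on both sides for most pairs, MCs for *Cxcl12* with *Ackr3* and *Cxcl13* with *Cxcr5*, and GFP+ ECs for *Cxcl12* with *Cxcr4* and *Ackr3* and for *Cx3cl1* with *Cx3cr1*.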

How the data were processed

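The read counts per gene were made by the authors before they were deposited: the submitters' processing notes give alignment to mm10 with GSNAP and counting with HTSeq 0.5.3p3, while the paper's methods name STAR and Ensembl 81, a conflict that the files do not settle. Of the reads in the table, 15.917% were ambiguous, 11.811% lay on no gene and 22.648% were not aligned. Pools were kept with over 500000 counts, over 20% of reads on genes, under 20% mitochondrial and under 20% spike-in counts. Gene symbols, types and exon lengths come from GENCODE M21. Per-gene levels are CPM scaled by TMM over all passing pools, and RPKM divides them by exon length.

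Each comparison kept genes that reached 10 counts in 5 or more of its pools, was scaled by TMM and was fitted and tested by quasi-likelihood in edgeR. Benjamini-Hochberg adjustment ran over all genes tested. Called genes had an adjusted p under 0.01 and, in size, a log2 fold change over 0.1. The standard error is the size of the log2 fold change over the square root of F. The code was tested on simulated data. Alternatives were DESeq2 size factors, spike-in size factors, all pools, 10 counts in 10 pools, no filter, the DESeq2 Wald test, an adjusted p under 0.05, a log2 fold change beyond 1, and marker scores as covariates (macrophage, haematopoietic, and haematopoietic with endothelial).

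The members and the marker and partner lists were chosen with earlier results of these data known. Chosen after the values were seen were the label check and its sorting genes, the fits without the 12 E11.5 pools, without 1 EC pool and without 1 HC pool, the 14 pairs, the motifs, the promoters shown and the single pools described. Members are named when called in a GFP comparison or at a mean of 10 CPM or more in a population, with full statistics for those called, and 1 member that meets this is not described. Partners are named up to 6 per comparison, by the smallest adjusted p. Promoters are those of RefSeq on GRCm38.p6. The work used R 4.3.3, edgeR 4.0.16, limma 3.58.1, DESeq2 1.42.0, Python 3.11.15, numpy 2.4.6, pandas 2.3.3 and matplotlib 3.10.9.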

Additional observations from a re-analysis of the deposited data

Results flagged for a closer look

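These results were flagged because edgeR's test of the difference of log2 fold changes called them. Each is a difference between cell types in how a member moved with GFP. For HC minus EC, 27% of the members tested were called, near the 22.7% of all genes. For SNS minus MC with all pools the shares were 20% and 9.66%. The list describes single genes and not the members as a set. Between HCs and ECs, 10 of 37 members tested differed (HC minus EC), where 22.7% of 17851 genes were called. The values were 9.25 for *Cxcl14*, 7.45 for *Ackr1*, -4.85 for *Cxcl16*, -4.53 for *Cxcr4*, 8.37 for *Ccl5*, 4.95 for *Ackr2*, -3.20 for *Cxcl12*, -1.43 for *Ccl3*, 4.69 for *Cxcl13* and 2.37 for *Ackr3*. With spike-in scaling the difference for *Ccl3* was smaller in size and was not called. The sizes for *Cxcl14*, *Ackr2* and *Cxcl13* depend on the prior count of the fit, since no GFP+ EC pool had more than 3 counts of them.

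Between SNS cells and MCs, 4 of 20 members tested differed with all pools (SNS minus MC), where 9.66% of 17733 genes were called. The values were 10.39 for *Cxcl14*, -6.71 for *Cx3cl1*, 7.05 for *Cxcl5* and 5.16 for *Ccl24*. The sizes for *Cxcl14*, *Cxcl5* and *Ccl24* depend on the prior count, since each has a population with no pool above 3 counts. The size for *Cx3cl1* depends on it too, with 17 of 18 GFP+ SNS pools at 0. Without the 12 pools whose sorting genes go against the label, 2 members differed, where 10.4% of 17309 genes were called. *Cx3cl1* still differed, and *Cxcl12* differed by -2.95 (adjusted p = 1.47e-14 by edgeR). *Cxcl5* did not pass, and for *Cxcl14* and *Ccl24* the difference could not be estimated. The only MC pools with counts of *Cxcl14* or *Ccl24* were the 3 GFP- MC pools against their label.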

How the results depend on the processing

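None of 37 results on members called with all pools, in the GFP comparisons and their differences, changed direction under the alternatives run where it could be estimated. Of 359 such values 330 stayed on the same side of the threshold and 29 were counted as weaker. The adjusted p under 0.05 and the log2 fold change beyond 1 are thresholds on the first fit, so no direction could change there. At the adjusted p under 0.05 all 37 values were also bound to stay called. The 29 include *Cxcl14* and *Ccl24* for SNS minus MC without the 12 pools, where no difference could be estimated and no direction is known. With the filter of 10 counts in 10 pools, members that fell below it were not tested or counted. Not all 37 results were assessed there. Of 78 counts of called members, 61 stayed within a factor of 1.5 of the count first given and 17 moved beyond it. The cause of these moves was not tested, except where fewer pools or genes enter by construction. Results that were not called could turn. *Ackr3* in SNS was 0.60 with all pools and -1.01 without the 12 pools, and *Ccl6* for SNS minus MC was -3.85 and 0.98. In HCs the macrophage score as a covariate left 7 called members, and the share of all genes called in that fit is not given.

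In MCs the count was 1, and it was 3 at an adjusted p under 0.05, 3 by DESeq2, 5 with no filter, 3 without the 12 pools, and 0 with the filter of 10 counts in 10 pools, where edgeR gave 3 of 10 members at an unadjusted p under 0.05. In SNS the count was 1, and it was 2 by DESeq2, 2 with no filter, 2 without the 12 pools, 0 with the filter of 10 counts in 10 pools (0 of 4 members at an unadjusted p under 0.05 in edgeR) and 0 with the haematopoietic and endothelial scores as covariates (8 of 17 at an unadjusted p under 0.05 in edgeR). Without the 12 pools the share of all genes called went from 4.36% to 10.4% in MCs and from 3.87% to 10.4% in SNS. Shares for the other settings are not given, so these counts do not show a change particular to the members.

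For SNS against MC the count of 8 became 14 at an adjusted p under 0.05, 16 with no filter and 15 without the 12 pools. For the difference SNS minus MC the count of 4 became 2 by DESeq2, 7 with no filter and 2 without the 12 pools. Without those pools the share of all genes called went from 23.4% to 40.2% for SNS against MC. For SNS minus MC it went from 9.66% to 10.4%. Here too the shares for the other settings are not given.

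Spike-in scaling moved the median log2 fold change of all genes to -0.596 in ECs, 0.349 in SNS, 0.435 for HC against EC, 0.747 for HC minus EC, 0.479 for SNS against MC and 0.373 for SNS minus MC. The share of called genes that were higher went from 54.1% to 14.3% in ECs, from 50.7% to 72.4% in MCs, from 52% to 83.3% in SNS, from 52.6% to 74.7% for HC against EC, from 62.2% to 91% for HC minus EC, from 48.5% to 89.2% for SNS against MC and from 53.5% to 76.3% for SNS minus MC.

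By DESeq2's Wald test *Ackr2* (adjusted p = 0.037) and *Cxcl13* (adjusted p = 0.0147) missed the threshold for HC minus EC, as did *Cxcl5* (adjusted p = 0.034) and *Ccl24* (adjusted p = 0.0686) for SNS minus MC. *Ackr3* missed it for HC minus EC in edgeR with DESeq2 size factors (adjusted p = 0.0112) and with no filter (adjusted p = 0.0168). *Ccr1* and *Cx3cr1* in HCs had log2 fold changes under 1 in size.

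No paired analysis was possible because the columns of the count table carry no pool or replicate number. Members below the filter entered only the fits with no filter.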
